A study of Mus musculus with 8 samples.

Results

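The 7 cardiac genes described here are 7 of the 32285 genes listed in the count matrices, taken by symbol, and together the genes most used as readings of a fetal or wall-stress programme in heart muscle. They are Nppa and Nppb, the atrial and brain natriuretic peptides, Ankrd1, a titin-associated ankyrin-repeat protein of the sarcomere that also enters the nucleus, Acta1, the skeletal-muscle actin, Xirp2, an actin-binding protein of the intercalated disc, and Myh6 and Myh7, the alpha and beta myosin heavy chains. All 7 had UMIs in cardiomyocyte nuclei of every library used. A UMI is 1 tagged RNA molecule, and levels are given as CPM, the UMIs of the gene per 1000000 UMIs of the same nuclei.

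The study profiled nuclei from adult mouse hearts with 10x Genomics droplets, in 8 libraries labelled as 4 groups of 2 by sex and genotype: nTg (labelled WT, non-transgenic) and Tg (labelled Tg-ccna2, constitutively expressing cyclin A2). The promoter of the transgene, the strain, the age beyond adult, and how many animals stand behind a library are not given in the sources used here. For 3 libraries, both labelled nTg male and the second labelled nTg Female, the matrix repeated that of the Tg library of the same sex and number, and its columns did not match its own barcode list; these 3 were not analysed here. The 5 used are listed in one fixed order, here and wherever 5 values follow: nTg Female 1, then Tg Female 1 and Tg Female 2, then Tg male 1 and Tg male 2. Ccna2, the gene of the transgene, went against the labels in cardiomyocytes of 2 of them: it stood at 446 CPM in the library labelled nTg Female 1 and at 0.529 CPM in the library labelled Tg Female 1, beside 829, 234 and 144 CPM in the other 3. Library names below are therefore labels only, and each comparison of genotype or sex holds for libraries as labelled.

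The 5 libraries held 25045167 to 38593706 UMIs under 8062 to 10642 barcodes, of which 5768 to 8817 nuclei per library passed the filters with medians of 2140.5 to 3053.5 UMIs. Any pair of libraries shared 14 to 28 barcodes. Cardiomyocytes numbered 6392 nuclei (1111, 1904, 934, 1279 and 1164) with median depths of 5908.5 to 8056.5 UMIs, and the sum of 12 markers fixed for them, titin and troponin T among them, was 47502.1 to 57625.5 CPM there against 1337 to 7964 CPM in the other 7 cell types with at least 50 nuclei in each library. Those 7 were fibroblast-, endothelial-, macrophage-, pericyte-, endocardial-, lymphatic endothelial- and smooth muscle-like nuclei. The library labelled Tg Female 2 stood apart: it held 448 of the 779 nuclei that the markers left unnamed.

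As background, natriuretic peptides are hormones that heart muscle releases when its wall is stretched; they act on the kidney and vessels to lower volume and pressure. In rodents the ventricle expresses Nppa, Acta1 and Myh7 before birth, lowers them afterwards as Myh6 becomes the main myosin, and raises the fetal genes again under pressure load or after injury. Nppb and Ankrd1 respond within hours to stretch, through factors that include TEAD, GATA4, SRF and MEF2, and Xirp2 is a target of MEF2.

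The 5 genes that were highest in the same cardiomyocyte state are shown, for that reason, with the 250 bases before their RefSeq start (build GRCm38.p6, coding strand, 5′ to 3′). The windows were chr4:147985650-147985899 (plus strand) for Nppb, chr19:36119845-36120094 (minus) for Ankrd1, chr8:123894776-123895025 (minus) for Acta1, chr4:148000472-148000721 (plus) for Nppa and chr2:67445752-67446001 (plus) for Xirp2. Capitals mark matches, on either strand, to the M-CAT element bound by TEAD factors (GGAATG), to a GATA element (AGATAA or TGATAA), to the CArG box of SRF or to the MEF2 element.
Nppb: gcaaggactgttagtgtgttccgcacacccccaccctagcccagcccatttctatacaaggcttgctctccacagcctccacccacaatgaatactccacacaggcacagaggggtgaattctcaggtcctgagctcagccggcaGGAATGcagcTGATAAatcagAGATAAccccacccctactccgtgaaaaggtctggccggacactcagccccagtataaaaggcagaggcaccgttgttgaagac
Ankrd1: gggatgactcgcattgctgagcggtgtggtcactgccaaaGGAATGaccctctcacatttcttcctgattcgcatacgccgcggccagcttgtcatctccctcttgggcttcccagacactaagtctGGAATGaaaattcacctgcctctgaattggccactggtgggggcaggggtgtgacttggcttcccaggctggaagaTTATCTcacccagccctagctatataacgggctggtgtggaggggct
Acta1: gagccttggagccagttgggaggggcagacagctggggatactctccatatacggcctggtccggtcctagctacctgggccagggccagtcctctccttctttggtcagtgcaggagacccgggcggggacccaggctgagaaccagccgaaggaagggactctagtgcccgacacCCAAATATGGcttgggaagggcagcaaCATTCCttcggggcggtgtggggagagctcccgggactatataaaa
Nppa: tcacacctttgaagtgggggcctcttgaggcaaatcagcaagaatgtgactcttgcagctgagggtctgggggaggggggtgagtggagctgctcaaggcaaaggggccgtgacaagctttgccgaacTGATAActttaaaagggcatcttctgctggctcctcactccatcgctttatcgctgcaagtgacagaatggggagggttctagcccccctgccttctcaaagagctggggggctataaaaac
Xirp2: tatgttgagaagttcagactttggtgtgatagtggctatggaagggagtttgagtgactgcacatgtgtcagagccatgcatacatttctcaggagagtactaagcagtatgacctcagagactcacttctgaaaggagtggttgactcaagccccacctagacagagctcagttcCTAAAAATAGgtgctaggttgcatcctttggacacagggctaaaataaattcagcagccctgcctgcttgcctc
The M-CAT letters stood 105 bases before the start in Nppb, 210 and 123 bases before it in Ankrd1 and 46 bases before it in Acta1. They were also found 206 bases before the start of Myh6 and 201 bases before that of Myh7 in 1 of its 2 entries, so 5 of 7 members held them, against 12.6% of 32851 promoter windows of the same length. GATA letters were found in Nppa (122 bases), Nppb (95 and 84 bases) and Ankrd1 (47 bases), 3 of 7 members against 16.6% of all windows. A CArG box was found in Acta1 alone among the 7 (73 bases; 1.47% of all windows) and a MEF2 element in Xirp2 alone (74 bases; 2.92%). These are matches of letters in a window, not binding sites shown by data.

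Nppa (ENSMUSG00000041616, chr4:148000722-148002079) and Nppb (ENSMUSG00000029019, chr4:147985788-147987205) are neighbours on the plus strand, coordinates being those of GRCm38. Myh6 (ENSMUSG00000040752, chr14:54941921-54966927) and Myh7 (ENSMUSG00000053093, chr14:54970684-54994626) follow each other on the minus strand and are close in sequence, so reads from shared exons are uncertain between them. Ankrd1 (ENSMUSG00000024803, chr19:36111961-36120099, minus), Acta1 (ENSMUSG00000031972, chr8:123891769-123894751, minus) and Xirp2 (ENSMUSG00000027022, chr2:67446002-67526614, plus) lie on other chromosomes. The long noncoding RNA Mhrt (chr14:54968678-54974349, plus), a heart-specific antisense transcript of the myosin locus, overlaps Myh7 by 3666 bases. Antisense genes also overlap Nppa (Gm13054), Myh6 (Gm49130) and Xirp2 (Gm13601), and whether the counting used strand is not given in the sources used here. Per kilobase of gene, the cardiomyocyte level (mean of 5 libraries) was highest for Myh6 at 299.7 CPM, followed by Nppb at 61.4, Ankrd1 at 55.1, Myh7 at 49.4, Nppa at 44.7, Acta1 at 15.5 and Xirp2 at 5.66. Introns make up 36.3% of Nppa and 85.1% of Xirp2, and nuclear RNA is rich in unspliced transcripts, so this order holds for nuclear RNA over whole gene bodies.

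Across cell types, 5 of the 7 genes were highest in cardiomyocytes in every library, while Nppa and Acta1 were not. The levels are descriptions without a test, and the 7 genes were left out of the clustering and the marker lists. Myh7 was highest by the largest factor, 76.5-fold over the median of the 7 other types (geometric mean of 5 libraries, range 58.5 to 95.5), followed by Xirp2 at 40.3-fold (27.4 to 59.6) and Myh6 at 18.8-fold (12 to 25.5). The 2 stress-responsive genes Ankrd1 and Nppb followed at 11.8-fold (6.68 to 15.9) and 8.39-fold (2.61 to 20.9). Nppa reached 2.16-fold (1.15 to 4.82) and Acta1 1.23-fold (0.877 to 1.79). For comparison, the giant sarcomere gene Ttn stood 116-fold above the other types, Mhrt 264-fold and Myl2, the ventricular regulatory light chain, 2.18-fold.

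**Figure D1:**
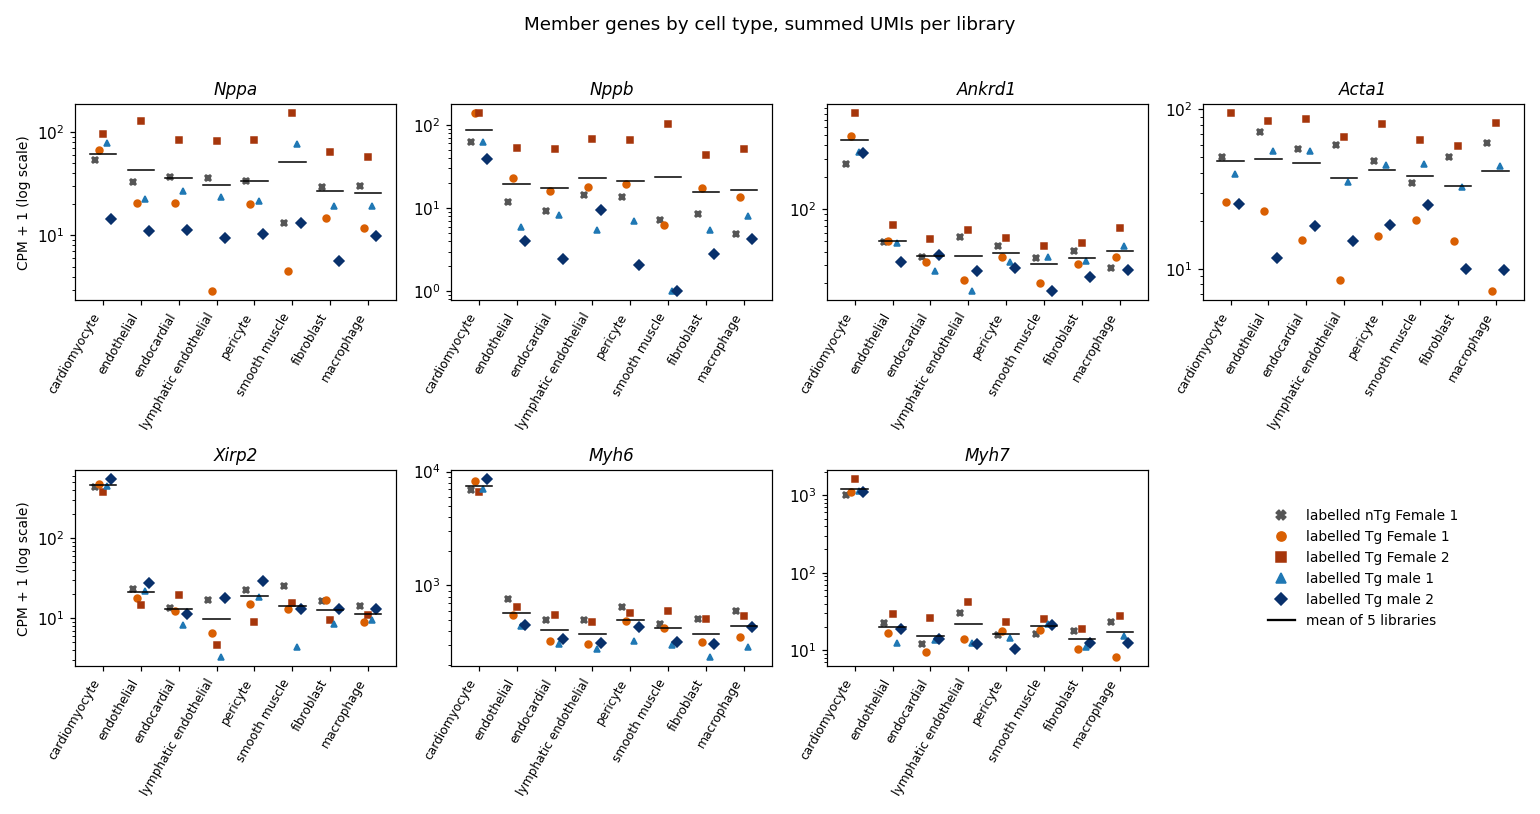
Level of each gene by cell type (y axis, CPM + 1 on a log scale) in the 5 libraries, with 1 symbol per library and a bar at their mean. Cardiomyocytes stand clear of the other types for Ankrd1, Xirp2, Myh6 and Myh7, while Nppa and Acta1 overlap, and the library labelled Tg Female 2 is the highest in each type for Nppa and Acta1.

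Nppa in cardiomyocytes was 52.8, 66.0, 94.6, 76.7 and 13.4 CPM. The library labelled Tg male 2 was the low one. Cardiomyocytes lay above all 7 other types in 4 libraries, but in Tg Female 2 smooth muscle-like nuclei (150.4 CPM) and endothelial-like nuclei (127 CPM) were higher. By mean over libraries the order was cardiomyocytes (60.7 ± 30.5 CPM, SD, n = 5), smooth muscle (50.8 ± 62.8), endothelial (42.0 ± 48.1), endocardial (35.1 ± 28.6), pericyte (32.7 ± 28.8), lymphatic endothelial (29.7 ± 31.3), fibroblast (25.6 ± 22.7) and macrophage (24.6 ± 19.3), and the ranges of all neighbours in it overlapped.

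Acta1 in cardiomyocytes was 49.6, 25.2, 93.4, 38.4 and 24.5 CPM, with Tg Female 2 the high library. Endothelial-like nuclei, at a mean of 48.2 ± 31.1 CPM, ranked above cardiomyocytes (46.2 ± 28.3), and fibroblasts were lowest at 32.3 ± 21.2, all neighbours overlapping. In nTg Female 1 and Tg male 1 only 3 and 2 of the 7 other types lay below cardiomyocytes. The median over the other types followed the library more than the type: it was 55.3, 14.1, 80.5, 43.8 and 14 CPM.

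Nppb in cardiomyocytes was 61.7, 137, 136.9, 61.7 and 38.0 CPM. Both libraries labelled Tg female were the high ones, and cardiomyocytes lay above all 7 other types in each library. The median of the other types was 8.29, 16.4, 52.5, 5.02 and 1.82 CPM, so the library labelled Tg Female 2 was again the highest. The other types followed at means of 14.6 CPM (fibroblasts) to 22.6 CPM (smooth muscle), and their ranges overlapped.

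Ankrd1 in cardiomyocytes was 264, 495, 802, 343 and 337 CPM, without overlap with any other type: endothelial-like nuclei came next at 49.0 ± 13.7 CPM. Xirp2 was 438, 479, 374, 451 and 541 CPM, its lowest value being that of Tg Female 2, where Nppa, Ankrd1 and Acta1 were highest. Myh6 was 6897, 8322, 6671, 7026 and 8552 CPM and Myh7 993, 1096, 1599, 1118 and 1106 CPM. Myh6 kept a level of 374 to 570 CPM in the means of the other types, and Myh7 stayed at 13.1 to 21.1 CPM in them.

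Cardiomyocyte nuclei held more UMIs than fibroblasts (medians of 5908.5 to 8056.5 against 2075 to 3023), so shares of nuclei were also read after thinning each nucleus to 1000 UMIs, which left out 0 to 4 cardiomyocytes and 17 to 81 fibroblasts per library as shallower. The share of cardiomyocyte nuclei with a Nppb UMI was 4.5, 11.5, 12.2, 4.78 and 3.52%, against 0.75, 1.62, 4.33, 0.486 and 0.145% of fibroblasts. For Nppa the shares were 2.97, 3.05, 6.02, 2.98 and 0.515% in cardiomyocytes and 2.75, 1.33, 6.94, 2.39 and 0.771% in fibroblasts, so in 2 libraries the cardiomyocyte share did not exceed the fibroblast share. Acta1 gave 5.22, 2.31, 8.49, 2.82 and 2.06% in cardiomyocytes beside 5, 1.52, 6.18, 3.40 and 1.06% in fibroblasts. At this depth the shares of nuclei with Nppa or Acta1 thus did not separate cardiomyocytes from fibroblasts in every library. The gap varied: Nppa stood at 3.05 against 1.33% in Tg Female 1, while Acta1 was lower in cardiomyocytes in Tg male 1. Ankrd1 was found in 15.3 to 33.2% of thinned cardiomyocyte nuclei against 2.27 to 5.34% of fibroblasts, Xirp2 in 24.6 to 38.8% against 0.909 to 1.5%, Myh7 in 60.7 to 77.5% against 1.08 to 2.29% and Myh6 in 98.7 to 99.5% against 21.0 to 38.2%. Without thinning, Nppa was found in 11.3, 8.30, 18.2, 8.76 and 2.66% of cardiomyocyte nuclei.

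RNA of cardiomyocytes free in the droplets can reach other nuclei, and its part in the levels outside cardiomyocytes was not tested. Measured against Myl2 in the same nuclei, Myh7 was 118 to 194% of Myl2 in cardiomyocytes and a median of 3.07 to 6.63% in the other types, so the 2 transcripts did not keep their proportion. Nppa was 6.26, 7.14, 11.5, 10.2 and 1.65% of Myl2 in cardiomyocytes and a median of 6.15, 4.37, 21.7, 4.88 and 2.61% in the other types, so the order differed between libraries. Acta1 was 2.73 to 11.4% of Myl2 in cardiomyocytes and a median of 4.01 to 18.0% in the other types.

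Between the libraries, the stress genes spread more than the contractile ones. The highest library exceeded the lowest by the most for Nppa, and by the least for Myh6 (6671 to 8552 CPM) and Xirp2 (374 to 541 CPM). The library labelled Tg Female 2 was the highest for Nppa, Ankrd1, Acta1 and Myh7, and nearly tied with Tg Female 1 for Nppb. Markers of other cells moved with it: in its cardiomyocytes the fibroblast marker sum was 259 CPM against 72.9 to 116 CPM in the other 4 libraries, the B cell sum 33.0 against 7.74 to 13.6 CPM, and the cardiomyocyte sum was the lowest of the 5 at 47502.1 CPM. Their part in the levels was not tested. The counting error of each level is drawn as exact 95% Poisson intervals in the plot of levels by library. For Nppa in Tg male 2, for instance, 144 UMIs gave 11.3 to 15.8 CPM. Such intervals cover counting error only and treat UMIs as independent. In Tg male 2, 12 of 1164 cardiomyocyte nuclei held 86.8% of the Nppa UMIs. The interval does not cover which nuclei happened to be drawn.

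**Figure D2:**
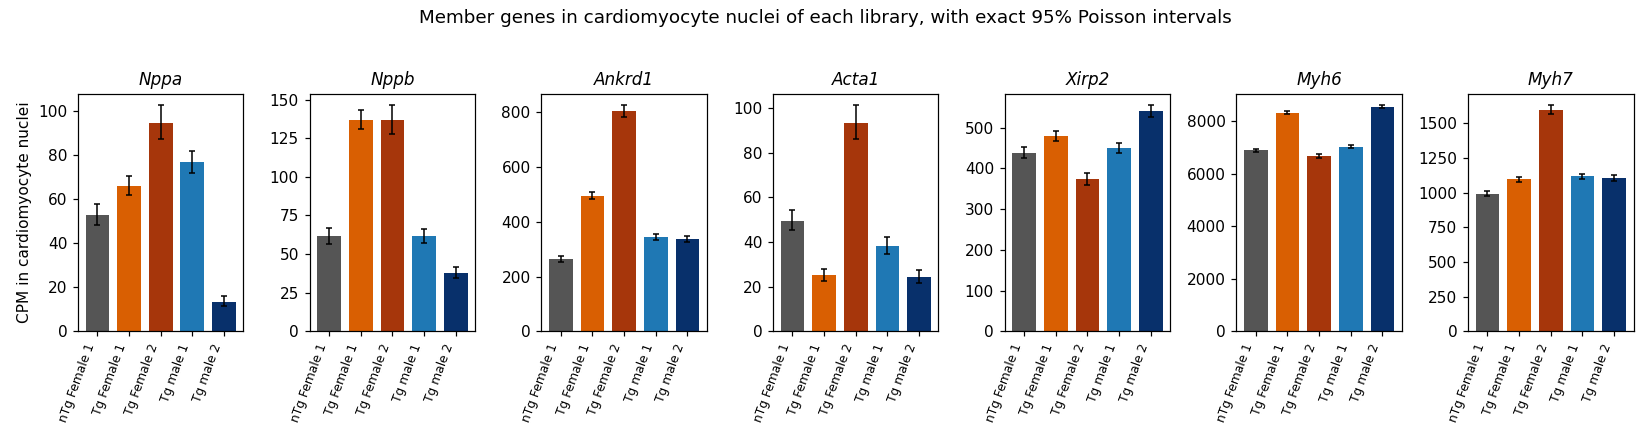
Level of each gene in cardiomyocyte nuclei (y axis, CPM from 0) in each of the 5 libraries, named as labelled, with exact 95% Poisson intervals as error bars. Nppb and Ankrd1 are higher in both libraries labelled Tg female than in both labelled Tg male, and Nppa is lowest in Tg male 2 at 13.4 CPM.

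Only 1 library labelled nTg could be used, so its comparison with the 4 labelled Tg has no replicate check and no test, and Ccna2 goes against the label in it. Calling a gene when it lay outside the range of the 4 and at least 2-fold from their mean, 0 of the 7 genes were called, against 0.37% of 3245 genes with a mean of at least 50 CPM in cardiomyocytes. Acta1, at 46.2 CPM, was the member below that minimum. Ankrd1, at 264 CPM against 494 ± 218 (SD, n = 4), and Myh7, at 993 CPM against 1230 ± 246, lay below all 4 libraries labelled Tg, 2 of 7 members where 29.8% of the 3245 genes lay outside that range on either side. On the log2 scale the differences were -0.90 for Ankrd1, -0.60 for Nppb, -0.31 for Myh7, -0.25 for Nppa, -0.15 for Myh6, -0.07 for Xirp2 and 0.13 for Acta1. Set against the 2 libraries labelled Tg female alone, Nppb (-1.15) and Ankrd1 (-1.29) passed 2-fold and both lay below that range, 2 of 7 members where 0.986% of the 3245 genes passed the same rule on either side.

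The share of beta myosin differed between libraries. Myh7 gave 12.6, 11.6, 19.3, 13.7 and 11.4% of the summed Myh6 and Myh7 UMIs of cardiomyocytes, the exact binomial 95% interval of the highest being 19.0 to 19.7% and that of the next 13.5 to 14%. Within each of the 4 large cardiomyocyte states described next it followed the library, at 10.8 to 14.2% in 4 libraries and 18.4 to 20.1% in Tg Female 2. Mhrt, which in mouse heart is known to fall under pressure load, was 2024, 1683, 1712, 1710 and 2015 CPM.

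Cardiomyocyte nuclei were divided into states by clustering on genes other than the 7. The 4 large states held 1883 (state 0), 1599 (state 1), 1567 (state 2) and 888 nuclei (state 3) with nuclei of every library. Among their leading genes were Gsn, Mgp and Fabp4 in state 0, Abcg2, Kctd16 and Creb5 in state 1, Ripor2 and Dlg2 in state 2, and Rp1, Slit2 and Kcnip4 in state 3. State 0, led by genes that other cell types also express, had the lowest median depth (5150 UMIs against 7869 to 8476) and a fibroblast marker sum of 92.9 to 353 CPM; in state 1 that sum was 57.6 to 189 CPM and the endothelial one 35.1 to 61.8 CPM. State 1 took 23.5 to 27.0% of cardiomyocytes in each library. Nppa, Nppb, Ankrd1, Acta1 and Xirp2 were all highest in state 1 in 5 of 5 libraries, and Myh6 was lowest there in 5 of 5. Because states are clusters of the same nuclei, these values are a description and no test was made.

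In state 1, Nppa was 125, 159, 192, 171 and 15.2 CPM, against state means of 25.6 (state 0), 12.3 (state 2) and 13.6 CPM (state 3). It held 72.1, 68.2, 51.7, 57.3 and 31.9% of all cardiomyocyte Nppa UMIs. In 4 of 5 libraries most Nppa UMIs thus came from a state with 23.5 to 27.0% of the nuclei. In the library labelled Tg male 2, low for this gene throughout, state 1 reached only 15.2 CPM.

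Nppb in state 1 was 125, 292, 312, 165 and 58.6 CPM, with means of 53.3, 56.6 and 13.7 CPM in states 0, 2 and 3. State 3 was the lowest in every library, from 0 UMIs in Tg male 2 to 37.7 CPM in Tg Female 2. Ankrd1 in state 1 was 514, 937, 1734, 666 and 588 CPM, against means of 289, 280 and 143 CPM. It too was lowest in state 3 in 5 of 5 libraries.

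Acta1 in state 1 was 79.0, 49.6, 177, 76.6 and 52.0 CPM (other state means 38.3, 30 and 19.7), and Xirp2 was 540, 687, 640, 680 and 652 CPM (other state means 365, 416 and 347). Xirp2 differed in one respect: its state 1 level varied little between libraries while that of the others varied by library. Myh6 was 6589, 8093, 6329, 6910 and 8324 CPM in state 1 and Myh7 962, 1071, 1551, 1131 and 1013 CPM.

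**Figure D3:**
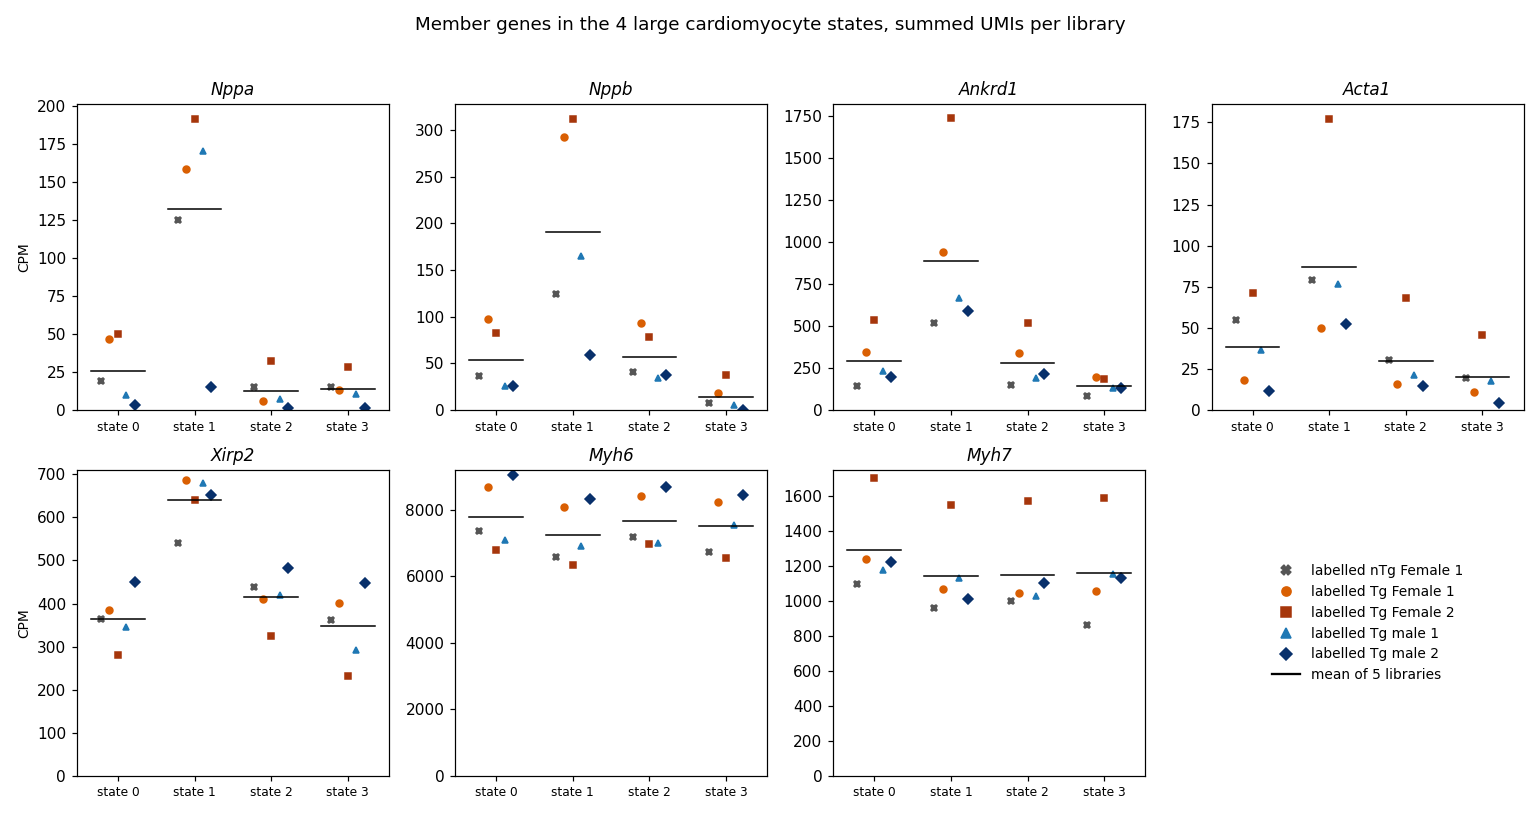
Level of each gene (y axis, CPM from 0) in the 4 large cardiomyocyte states, with 1 symbol per library and a bar at the mean of 5 libraries. Nppa, Nppb, Ankrd1, Acta1 and Xirp2 are highest in state 1 in each library, whereas Myh6 and Myh7 differ between libraries more than between states.

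State 1 exceeded the mean of the other 3 large states 4.73-fold for Nppa (geometric mean, CPM + 10, range over libraries 2.12 to 9.52), 3.71-fold for Nppb (2.22 to 5.49) and 3.55-fold for Ankrd1 (3.14 to 4.14). Among the 3245 genes these were the ranks 1, 2 and 3 by fold, although none of them had been used to form the states. Against all other cardiomyocytes (3251 genes) they ranked 1, 3 and 4, with Abcg2 second. Acta1 followed at 2.48-fold (1.98 to 3.08) and Xirp2 at 1.70-fold (1.38 to 2.25, rank 32). Myh6 stood at 0.946-fold, Myh7 at 0.955-fold and Mhrt at 0.816-fold. Of the 3245 genes, 16.7% were higher in state 1 in all 5 libraries, 20.6% were lower in all 5, and 0.339% were at least 2-fold higher in all 5, Nppa, Nppb and Ankrd1 among them.

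Other genes of the sarcomere and of stretch sensing were read from lists chosen with earlier results of these data known. Of 24 stretch and Z-disc genes, 17 had at least 50 CPM, and 13 of them were higher in state 1 in all 5 libraries and 1 was lower, with a median log2 difference of 0.30 against -0.01 over all genes. The 5 highest were Ankrd23, a relative of Ankrd1 on titin (2.50-fold), Ccn1, a matricellular protein (1.67-fold), the actin cross-linker Flnc (1.66-fold), Synpo2l (1.62-fold) and Nrap, an anchor of thin filaments at the intercalated disc (1.58-fold). Nebl was the lower one (0.941-fold), and Fhl2 stood at 0.923-fold, higher in 1 of 5 libraries.

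Adult contractile and calcium genes did not move one way: of 19 measured, 5 were higher in all libraries and 7 lower, with a median of 0.01. The sarcomere genes Mybpc3 (1.36-fold), Actn2 (1.24-fold) and Ttn (1.18-fold) were among the higher. The lower ones included the sarcomere genes Tnni3 (0.890-fold) and Tnnt2 (0.937-fold) as well as Atp2a2, the calcium pump of the sarcoplasmic reticulum (0.820-fold). Of 22 transcriptional regulators, 3 were higher, namely Mrtfb (1.21-fold), Tbx20 (1.19-fold) and Tead1 (1.09-fold), and 5 lower, among them the thyroid hormone receptor Thrb (0.838-fold). These counts were near the shares over all genes, 16.7% higher and 20.6% lower. The median log2 difference of the regulators was -0.005 against -0.01 over all genes. Among 3 measured genes of peptide processing and signalling, Corin, the protease that cleaves the Nppa precursor, was lower (0.713-fold, 0 of 5 libraries higher), Mme, which degrades the peptides, was lower (0.832-fold), and the cGMP-dependent kinase Prkg1 was higher (1.78-fold). Of 5 measured stress and remodelling genes, Clu (1.33-fold) and Tgfb2 (1.44-fold) were higher in all 5 libraries. Only 2 of 14 fetal or smooth muscle isoforms had at least 50 CPM. Myh7b was higher in all 5 libraries (1.27-fold), and Actc1 stood at 0.983-fold, higher in 2.

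State 3 had the lowest Nppb, Ankrd1 and Acta1 in 5 of 5 libraries. Nppb stood there at 0.207 of the mean of the other large states, Ankrd1 at 0.329, Nppa at 0.383, Acta1 at 0.478 and Xirp2 at 0.724. Of the 17 stretch and Z-disc genes, 14 were lower in all 5 libraries and 1 higher, where 17.9% of all genes were lower. Their median log2 difference was -0.28 against 0.00 over all genes. The drop was not particular to that list: 13 of 19 adult contractile and calcium genes were lower in all 5 libraries and 2 higher (median -0.15). So were 4 of 5 stress genes (median -0.32) and 2 of 2 fetal isoforms lower, while of 22 regulators 5 were higher and 2 lower. Myh6 (0.992) and Myh7 (0.965) were close to the other states, and Mhrt was highest there in 5 of 5 libraries.

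The borders of state 1 depend on how finely the nuclei are divided. With a coarser division (resolution 0.3 in place of 0.5), 82.4% of state 1 fell into a cluster of 4428 nuclei, and the 5 genes were highest in a cluster of 340 nuclei (34 to 111 per library), of which 210 came from state 1 and 128 from the conduction-like nuclei described below. With a finer division (0.8), they were highest in 5 of 5 libraries in a cluster of 524 nuclei (77 to 150 per library), 92.2% of them from state 1. Both clusters were picked after their values were seen, so they carry no test.

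From state 1 to the 524 nuclei and to the 212 of the 340 nuclei that were not conduction-like, the fold over all other cardiomyocytes of the library went for Nppa from 3.96 to 9.52 and 19.3. It went from 3.07 to 3.94 and 6.37 for Ankrd1, from 2.34 to 2.69 and 4.66 for Acta1, and from 1.67 to 2.16 and 3.06 for Xirp2. Nppb did not follow this order, at 3.23, 3.11 and 5.12. Myh6 moved the other way, at 0.95, 0.849 and 0.753, lower in 5 of 5 libraries in each set, and so did Mhrt at 0.83, 0.773 and 0.673. Myh7 stood at 0.958, 0.931 and 1.02, so the set highest in the natriuretic peptides showed less Myh6 RNA and, on average, a Myh7 level near that of the other cardiomyocytes. Relative to Myh6, Myh7 was thus higher in that set. Its fold ranged from 0.834 to 1.27 over the libraries, where that of Myh6 ranged from 0.674 to 0.808.

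**Figure D4:**
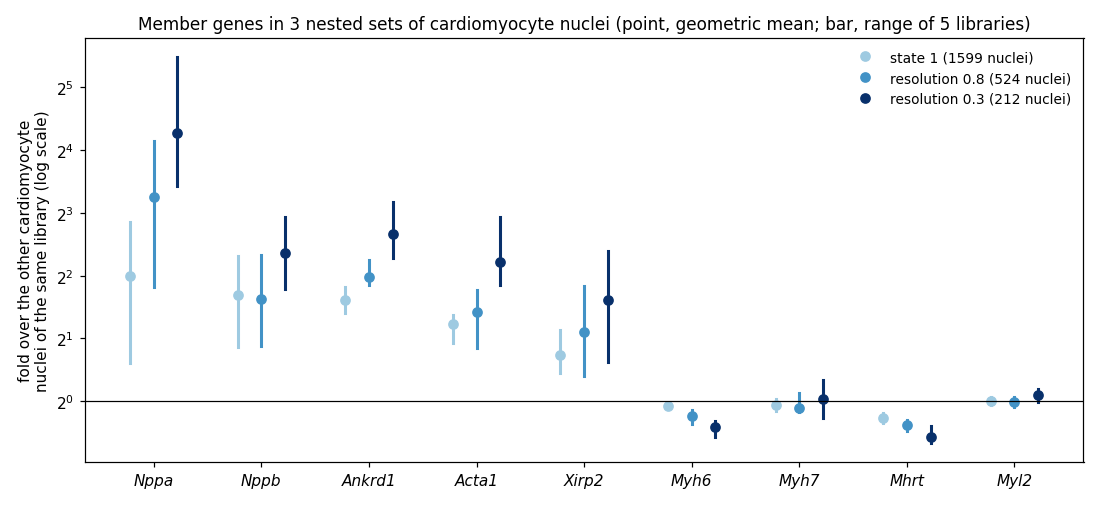
Fold of each gene over the other cardiomyocyte nuclei of the same library (y axis, log scale) in 3 sets of nuclei of decreasing size, with the geometric mean as a point and the range of 5 libraries as a bar. Nppa, Ankrd1, Acta1 and Xirp2 are further from 1 the smaller the set, while Myh6 and Mhrt lie below 1 and Myl2 near it.

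The levels of atrial genes depended on whether the 128 conduction-like nuclei of that cluster were counted. Over all 340 nuclei Myl4 stood at a mean of 88.4 CPM, 4.33-fold of the other cardiomyocytes and higher in 5 of 5 libraries. Myl7 was at 2.12-fold, higher in 4 libraries, and Sln at 1.78-fold, higher in 3. In the 212 nuclei Myl7, Sln and Myl4 stood at means of 0.663, 1.99 and 7.80 CPM, and Myl2, the ventricular light chain, at 886 CPM, 1.07-fold of the other cardiomyocytes. In these nuclei Nppa was 1207, 731, 733, 858 and 176 CPM, Nppb 452, 459, 607, 421 and 148 CPM and Ankrd1 1967, 2128, 3525, 1762 and 2161 CPM. Ccna2 was 132, 0, 700, 115 and 0 CPM there; in Tg Female 1 it was near 0 in the other cardiomyocytes as well.

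A small conduction-like state, state 5 (131 nuclei, 10 to 45 per library, led by Fgf12, Robo1, Etv1 and Cntn2), also held Nppa, at 404, 390, 183, 1101 and 564 CPM. It gave 4.42 to 33.3% of all cardiomyocyte Nppa UMIs. The atrial light chain Myl4 was 54.6, 332, 330.5, 483 and 82.3 CPM in these nuclei. Their atrial marker sum was 141 to 849 CPM against 74.5 to 95.8 CPM in state 1. When the member genes were among the sub-clustering genes, the markers named a cluster of 76 nuclei atrial and another of 105 nuclei conduction. Whether state 5 mixes atrial with conduction nuclei was not tested. Nppb there was 87.3, 8.29, 49.2, 49.6 and 223 CPM, from 2 to 19 UMIs per library.

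Nppa was the member held by the fewest nuclei. The top 1% of cardiomyocyte nuclei held 70.4, 63.2, 44.0, 75.6 and 86.8% of its UMIs, and 3 to 27 nuclei per library had 10 or more, up to 143 in a nucleus. For Nppb the top 1% held 14 to 26.2%, for Acta1 15.8 to 29.7%, for Ankrd1 10.8 to 20.6% and for Xirp2 6.27 to 17.5%. Myh6 (4.01 to 5.31%) and Myh7 (3.98 to 4.57%) were the most even.

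Within the same nucleus, thinned to 2000 UMIs, nuclei with a Nppb UMI more often had one of Ankrd1 than nuclei without: 41.7 against 20.7%, 53.7 against 33.5%, 63.6 against 40.8%, 54 against 25.7% and 44.4 against 26.5%. The exact binomial 95% intervals of the 2 shares did not overlap in any library. Acta1 followed, at 6.25 to 26.6% of nuclei with Nppb and 3.46 to 11.6% without, and Nppa at 7.94 to 15.8% and 0.729 to 6.94%, higher with Nppb in all 5 libraries. Xirp2 differed less, at 50 to 59.9% against 39.9 to 57.8%, and Myh7 was found in 78.1 to 94.0% with and 84.7 to 92.9% without. Nuclei of a library are not replicates, so these shares are a description.

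Nuclei rich in Ccna2 had less Nppa than nuclei without it in 4 of 4 libraries. In the 4 libraries with at least 30 nuclei of 10 or more Ccna2 UMIs (109 in nTg Female 1, 115 in Tg Female 2, 70 in Tg male 1 and 36 in Tg male 2), Nppa was 15.6, 61.6, 12.5 and 0 CPM, against 58.0, 99.9, 80.7 and 14.1 CPM in nuclei with 0 Ccna2 UMIs. The last value, 0 of the UMIs of 36 nuclei, allows up to 8.91 CPM by its exact interval, which treats UMIs as independent. The Nppa values of the Ccna2-rich nuclei rest on 15, 56, 8 and 0 UMIs. The top 1% of cardiomyocyte nuclei held 44.0 to 86.8% of Nppa UMIs in a library. Sets of 36 to 115 nuclei can therefore read low by holding few such nuclei, and a tie to Ccna2 was not tested. Nppb was 48.8, 152, 20.3 and 9.67 CPM against 61.1, 133, 64.2 and 39.1, so Tg Female 2 went the other way. Ankrd1 did not separate them, at 299, 808, 317 and 355 CPM against 258, 800, 345 and 338. State 1 made up 7.34, 9.57, 5.71 and 5.56% of the Ccna2-rich nuclei and 28.8, 25.7, 24.6 and 27.0% of those at 0. This difference moved with these values, and its part in them was not tested. Within states 0 to 3 Ccna2 reached at most 360, 296, 278 and 157 CPM in any library. Over all cardiomyocytes of Tg Female 2 it was 829 CPM. A smaller state 4 (232 nuclei, led by Gm10800 and Gm10801) held 6.93, 0.0525, 7.92, 4.22 and 2.23% of cardiomyocytes in the 5 libraries. Its part in the Ccna2-rich nuclei was not tested.

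Over 26 sums of states and libraries (centred within library, 3283 genes), Nppb, Ankrd1, Acta1 and Xirp2 went together, with Pearson's r of 0.79 for Nppb and Ankrd1, 0.88 for Nppb and Acta1, 0.81 for Ankrd1 and Acta1 and 0.83 for Acta1 and Xirp2. Nppa was less like them, at 0.34 with Nppb and 0.72 with Ankrd1, and at -0.47 with Myh6. Sums needed at least 30 nuclei. Conduction-like state 5 therefore entered from Tg Female 1, Tg Female 2 and Tg male 1, and state 4 from some libraries. State 5 lay above state 1 in Nppa but below it in Nppb in Tg Female 1 and Tg male 1. In Tg Female 2 it lay below state 1 in both. Within the 4 large states, Nppa and Nppb were both highest in state 1 in 5 of 5 libraries. The part of state 5 in the r values of Nppa was not tested. The genes most like each member were Tox3 and Slc24a2 for Nppa (both 0.89), Gm12092 and Nrap for Nppb (both 0.90), Sorbs2os for Ankrd1 (0.95), Ankrd23 for Acta1 (0.90), Nrap for Xirp2 (0.90), Slc25a20 for Myh6 (0.91) and Dbp, a clock output gene, for Myh7 (0.86). The sums share libraries and depth, so these are descriptions with no p.

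Between the sexes, the 4 libraries labelled Tg allow the only comparison with 2 libraries in each arm. In cardiomyocytes, Nppb and Ankrd1 were higher in both libraries labelled Tg female than in both labelled Tg male, 2 of 7 genes, where 16.7% of 3245 genes were. Nppb averaged 137 ± 0.130 CPM (SD, n = 2) against 49.8 ± 16.7, and Ankrd1 649 ± 218 against 340 ± 4.08. With edgeR's quasi-likelihood test and Benjamini-Hochberg adjustment over 15053 genes, 0 of the 7 were called and 2 had an unadjusted p under 0.05, while DESeq2 called 2, Nppb and Ankrd1. DESeq2 called 0.844% of the 12083 genes to which it gave an adjusted p. edgeR called 4 of the 15053 genes, 0.0266%, and 7.1% had an unadjusted p under 0.05. Nothing in the labels ties libraries to separate animals, so p-values measure the spread between these libraries.

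For Nppb the log2 difference was 1.42 (SE 0.24, 95% interval 0.86 to 1.98), with an edgeR adjusted p of 0.265. Ankrd1 differed by 0.88 (SE 0.25, 0.29 to 1.47), with an edgeR adjusted p of 0.497. Over the alternatives run, the adjusted p of Nppb went from 7.7e-05 (DESeq2) to 0.804 and that of Ankrd1 from 0.00635 to 1.00; leaving out Tg Female 1, Tg Female 2, Tg male 1 or Tg male 2 put Nppb at 0.0236, 0.0482, 0.000564 and 0.199, with differences of 1.38, 1.44, 1.78 and 1.11. Each such fit leaves 1 library in an arm, which is assumed to vary like the 2 of the other arm. Nppa (0.79, SE 0.64) and Acta1 (0.84, SE 0.53) did not pass, and both depended on single libraries: without Tg male 1 the difference of Nppa was 2.50 (edgeR adjusted p 5.73e-08) and without Tg male 2 it was 0.02 (edgeR adjusted p 1.00). Acta1 differed by 1.49 without Tg Female 1 (edgeR adjusted p 0.0162) and by -0.33 without Tg Female 2 (edgeR adjusted p 0.759). Xirp2 (-0.26, interval -0.78 to 0.27), Myh6 (-0.10, -0.81 to 0.62) and Myh7 (0.23, -0.34 to 0.80) did not pass either. The nTg Female 1 library, also labelled female, was at 61.7 CPM for Nppb, level with Tg male 1, and at 264 CPM for Ankrd1, below both male libraries. With it added to the female arm, 3 against 2, the difference was 1.13 for Nppb (edgeR adjusted p 0.804) and 0.57 for Ankrd1 (edgeR adjusted p 0.979). With all 5 libraries Ankrd1 no longer separated the sexes. One of the 2 female libraries of the main contrast, Tg Female 1, is among those whose Ccna2 goes against the label.

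For Nppb the order of the sexes was the same in each large state. In state 1 Nppb averaged 302 ± 13.9 CPM in the female arm and 112 ± 75.2 in the male arm, in state 0 89.5 ± 10.7 and 25.6 ± 0.324, in state 2 85.6 ± 10.6 and 35.9 ± 1.98, and in state 3 28.1 ± 13.6 and 2.70 ± 3.82. The libraries of the 2 sexes did not overlap in any of the 4, where 17.8, 15.3, 18.3 and 18.2% of the 3245 genes were higher in both female libraries in states 0 to 3. Ankrd1 likewise separated in all 4, at 1336 ± 563 and 627 ± 55.1 CPM in state 1. Nppa was higher in both female libraries in states 0 and 3, Myh7 in state 0, and Acta1 and Myh6 overlapped in all 4. Xirp2 was lower in both female libraries in state 2, an order whose share over all genes is not given here. State 1 itself made up 24.8 and 23.6% of cardiomyocytes in the female arm and 23.5 and 26.2% in the male arm.

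Nppb was also higher in both libraries labelled Tg female in each of the 7 other cell types, where 13.8 to 29.4% of the genes tested in a type had that order. It passed the edgeR test in endothelial-like nuclei, at 22.3 and 52.5 against 5.02 and 3 CPM, a log2 difference of 3.08 (SE 0.46, 95% interval 2.04 to 4.12, adjusted p 0.0489), where 0.178% of 12926 genes were called. With called doublets kept, that adjusted p was 0.0876 and the gene was not called. The log2 differences in fibroblast-like nuclei (3.07, edgeR adjusted p 0.0571), pericyte-like (3.25, 0.208), macrophage-like (2.50, 0.203) and endocardial-like nuclei (2.48, 0.429) did not pass; the share of genes called was 0.5, 0.107, 0.238 and 0.186% in these types, and 0.141 and 0.206% in lymphatic endothelial- and smooth muscle-like nuclei. In smooth muscle-like nuclei Nppb was 5.23 and 102 CPM against 0 UMIs in both male libraries, where the exact upper bounds were 12.7 and 14.8 CPM. The cardiomyocyte level of Nppb moved with these values, and the part of free RNA in them was not tested. Whether the difference is larger in these types than in cardiomyocytes was not tested.

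**Figure D5:**
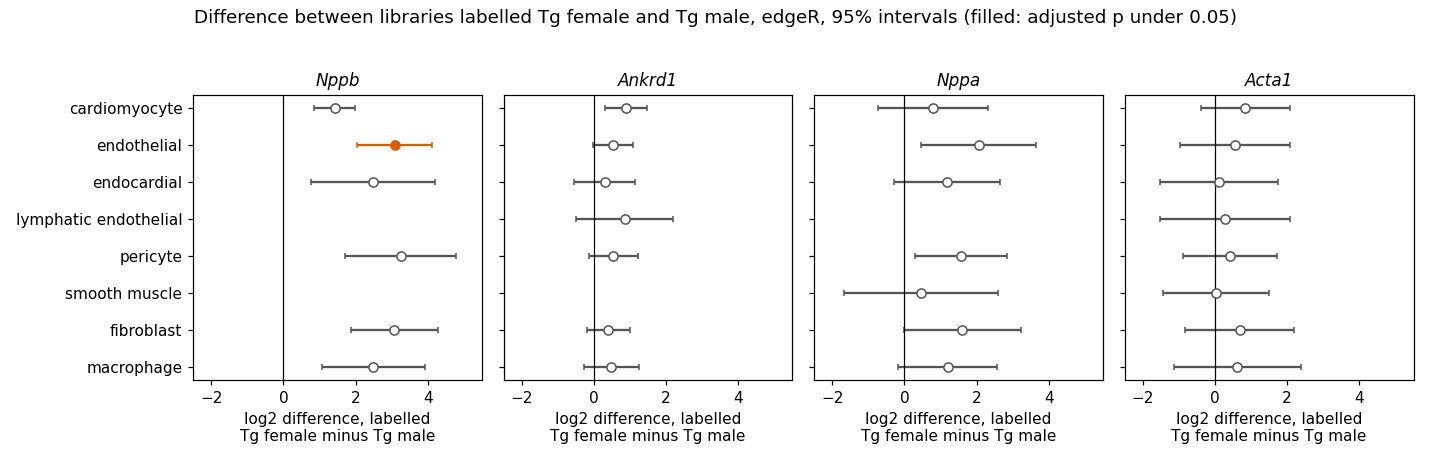
Log2 difference between the libraries labelled Tg female and Tg male (x axis) for Nppb, Ankrd1, Nppa and Acta1 in each cell type where the gene could be tested, from edgeR, with 95% intervals as bars and filled points where the adjusted p was under 0.05. Every estimate lies above 0, and Nppb in endothelial-like nuclei (3.08) is the filled point.

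Of the other members, Ankrd1 separated the sexes in 3 of 8 types, Myh6 in 4 and Myh7 in 2, female above in each case. That order was held by 16.7% of 3245 genes in cardiomyocytes and by 13.8 to 29.4% of genes tested in the other types. All types come from the same 4 libraries, so these counts are not independent. Nppa and Acta1 separated in 0 of 8; Tg Female 2 was the highest library for both in each type. Xirp2 was higher in both libraries labelled Tg female in 2 types and lower in 2. The share of all genes lower in both is not given here, so the lower order has no rate beside it. None of these other members was called in any type.

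The genes around the 7 gave no call in cardiomyocytes: in 6 lists of stretch, fetal-isoform, contractile, regulator, peptide-processing and stress genes, edgeR and DESeq2 each called 0, with 0 of 24, 2 of 12, 0 of 20, 1 of 26, 2 of 6 and 2 of 13 genes tested at an unadjusted edgeR p under 0.05. The median log2 difference of the 7 members was 0.79 (5 positive), beside 0.11 for stretch and Z-disc genes, 0.15 for fetal or smooth muscle isoforms, 0.07 for adult contractile genes, -0.15 for regulators, -0.10 for peptide processing, 0.33 for stress genes and 0.01 over all genes. Cryab (0.39) and Ankrd23 (0.29) had the highest values of the stretch list and Des (-0.34) and Myoz2 (-0.31) the lowest.

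Tpm2, a tropomyosin rich in smooth muscle, differed by 2.44 (SE 0.80, edgeR adjusted p 0.559), at 12.4 and 57.9 against 9.80 and 2.33 CPM, with Tg Female 2 high. Among the fetal isoforms of at least 10 CPM in the higher arm, Acta2 (1.64) was next, while Igf2bp3 (0.04) and Myh7b (-0.20) were lowest. Below that level, Myl7 (2.15) and Myl9 (1.95) were higher than Acta2. The calcium exchanger Slc8a1 was at 6561 and 6819 against 4481 and 4321 CPM (0.56, edgeR adjusted p 0.738). Of the same list Tpm1 (0.41), Tnnt2 (-0.32) and Ttn (-0.24) followed.

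Corin, at 906 and 614 against 1161 and 1180 CPM (-0.66, edgeR adjusted p 0.664), and Mme (-0.49) had lower values in the libraries labelled Tg female, where the peptide Nppb was high. Prkg1 (0.23) and Npr2 (0.16) were the highest of that list among genes of at least 10 CPM in the higher arm. Npr3 (0.51), below that level, was higher. Among the regulators Myocd (0.40) and Mef2a (0.40) stood at the top and Ppara (-0.58) and Nfatc1 (-0.41) at the bottom. Among the stress genes of at least 10 CPM, Nmrk2 (0.47) and Tnfrsf12a (0.33) stood at the top and Mt2 (-1.33) and Mt1 (-0.90) at the bottom. Stress genes below that level with higher values than Nmrk2 were Gdf15 (1.16), Uchl1 (1.14), Runx1 (0.97), Dab2 (0.56) and Postn (0.48).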

How the data were processed

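Each file held UMI counts per gene and nucleus, deposited by the authors; per the file headers they came from Cell Ranger 7.0.0, and per the submitters' processing notes from build mm10. The kit, intron counting and annotation release are not given in the sources used here, and 0 columns belonged to no sample. Barcodes needed 200 detected genes and a mitochondrial share below 5%; called doublets (6% assumed) were taken out, and the remaining nuclei clustered in scanpy 1.11.5 (2000 variable genes without the members, Ccna2, sex-linked or mitochondrial genes, 30 components, 15 neighbours, Leiden resolution 1, cardiomyocyte states 0.5). Clusters were named from marker lists. Members and lists were chosen with earlier results of these data known. Counts were summed per library and type. edgeR 4.0.16 (R 4.3.3) tested the 4 libraries labelled Tg by sex with its quasi-likelihood test, Benjamini-Hochberg adjustment and a threshold of 0.05; DESeq2 1.42.0 was an alternative, beside low-count filters, left-out libraries, a replicate block, doublets kept, other resolutions and other library sizes. All 7 members are named; likeness names the 3 genes of highest r among those with at least 50 CPM, and context lists their 2 highest and 2 lowest differences among genes of at least 10 CPM. Tested on simulated data for the cardiomyocyte sex difference (15004 genes, 200 changed), edgeR called 76.02% of changed genes and 97.01% of those of 4-fold or more. Of its calls, 4.487% were false. Every simulated gene had the same dispersion of 0.05, so these rates need not hold for genes that vary more between libraries. Promoters are from RefSeq (8 entries matched for 7 genes). Same-numbered libraries did not deviate together (r = 0.0263 over 15053 genes).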

Additional observations from a re-analysis of the deposited data

Results flagged for a closer look

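In 7 of 56 sets of 4 libraries labelled Tg (7 genes in 8 cell types), the highest library lay further from the other 3 than Dixon's 95% critical value allows. For independent sets chance gives about 1 in 20. All 56 sets come from the same 4 libraries, so the 7 cannot be weighed against that rate. In each of the 7 it was Tg Female 2. Myh7 in cardiomyocytes stood at 1599 CPM there. Nppa stood at 127 CPM in endothelial-like and 82.1 CPM in pericyte-like nuclei. Myh6 was at 554 CPM in endocardial-like and 475 CPM in lymphatic endothelial-like nuclei. Myh7 was at 40.5 CPM in lymphatic endothelial-like nuclei, from 11 UMIs beside 7 in Tg Female 1, 5 in Tg male 1 and 4 in Tg male 2. Nppb was at 102 CPM in smooth muscle-like nuclei.

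Xirp2 had opposite orders of the sexes in different cell types, each with both female libraries on one side of both male ones. Its level was higher in the female arm in endocardial-like nuclei (14.9 against 8.74 CPM, log2 ratio 0.77, from 7 to 12 UMIs per library labelled Tg) and in smooth muscle-like nuclei (13.4 against 7.75 CPM, 0.79, from 1 to 7 UMIs), where it was too low to test. It was lower in endothelial-like (15.2 against 24.1 CPM, edgeR adjusted p 0.444) and pericyte-like nuclei (11.1 against 22.8 CPM, edgeR adjusted p 0.783), and neither passed. Of all genes tested in a type, 13.8 to 29.4% were higher in both female libraries. The share lower in both is not given here. The difference between the cell types was not tested.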

How the results depend on the processing

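The count of genes called between the sexes in cardiomyocytes (4 with edgeR) was 102 with DESeq2, 122 without a filter, 0 when each library had to hold 10 UMIs of a gene, 75 with the replicate block, 7 in nuclei of state 1 alone (chosen after seeing the data) and 86 to 397 with 1 library left out. Members called (0) became 2 with DESeq2, 1 without a filter, 1 with the replicate block and 0 to 3 with 1 library left out. Over the other cell types the count (1) became 3 with DESeq2, 10 without a filter, 4 with the replicate block, 0 with doublets kept and 2 to 17 with 1 library left out. Nppb passed under 7 of 8 alternatives in fibroblast-like, 6 in pericyte-like, 3 in macrophage-like and 3 in endocardial-like nuclei; 4 of the 8 leave 1 library in an arm. The replicate numbers do not pair the libraries (r = 0.0263). Nppb in cardiomyocytes had an edgeR adjusted p of 0.00985 with the block. Against the library labelled nTg, members called (0) became 2 when only the libraries labelled Tg female were used and 0 to 1 with 1 left out. Leaving out 1 library moved the sex difference of Acta1 between -0.33 and 1.49, of Myh6 between -0.31 and 0.075 (0.075 without Tg Female 2, 0.059 without Tg male 2) and of Myh7 between -0.039 and 0.44. In the cluster best matched to state 1, members highest in every library went from 5 to 0 at resolution 0.3 and 0 at 0.8. The log2 difference there was -3.40 for Nppa, -0.83 for Nppb, -1.34 for Ankrd1, -0.86 for Acta1, 0.19 for Myh6 and -0.77 for Xirp2 at 0.3, and -1.41 for Nppa, 0.065 for Myh6 and -0.11 for Xirp2 at 0.8; 82.4% and 51.0% of state 1 were in those clusters. For the other changes the cause was not tested. Of the single-gene values under alternatives, 261 counted as kept, 29 as stronger, 1 as weaker, 13 as reversed and 16 as moved. For the sex differences, kept means the same direction and side of the threshold. For the nTg ratios, cell type folds and thinned shares, it means a shift smaller than the SD between libraries. Those values and the state folds have no threshold.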
